A study of Arabidopsis thaliana with 12 samples.

Results

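The comparison described here sets seedlings of the Arabidopsis thaliana mutant uvr8 against seedlings of the wild type Col-0 when both were exposed to UV-B. It rests on 6 of the 12 RNA-seq libraries of the study, 3 of uvr8 and 3 of Col-0, chosen by their labels alone. The seedlings were 10 days old, had been raised with 16 h of light and 8 h of darkness a day, and received white light supplemented with UV-B at 5 µmol per square metre per second for 3 h. Neither group received abscisic acid (ABA). Col-0 seedlings kept in white light without UV-B (3 libraries) serve as a baseline, and there are no uvr8 libraries in white light among those used. The remaining 3 libraries, Col-0 in white light with 50 µM ABA, contribute to the estimate of the spread and are not described. The labels call the replicates independently prepared, do not say how many seedlings were pooled, and give neither the uvr8 allele nor its parental background.

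UVR8 is the UV-B photoreceptor of plants. It rests as a dimer, which UV-B splits into monomers that bind COP1, the ubiquitin ligase subunit that otherwise removes light-promoting transcription factors. The bZIP factors HY5 and HYH then accumulate and activate sunscreen synthesis, photoprotection and DNA repair genes, while the WD40 proteins RUP1 and RUP2 bring the receptor back to its dimer.

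Of 32833 loci with a transcripts-per-million (TPM) value, 19227 reached 1 TPM in at least 3 of the 6 UV-B libraries and were tested on the log2(TPM + 1) scale with limma, with Benjamini-Hochberg adjustment over all of them. At an adjusted p of 0.05, 8769 genes differed. Of the genes tested, 34.0% (6541) were higher in uvr8 and 11.6% (2228) were lower. This split depended on scaling: the median gene was 0.20 higher in uvr8 on the log2 scale in the TPM as deposited, and after a trimmed-mean scaling that set this median near 0 the shares were 19.5% higher (3747) and 19.6% lower (3772). Counts of list members below are to be read beside these shares. No gene was called in opposite directions by the 2 scalings, and all 2228 genes lower in the deposited TPM were also lower after scaling. The scaling moved differences downward, so this agreement follows largely from its direction. Counted on the log2(TPM + 1) scale of the deposited values, at least 2-fold differences numbered 798 higher and 699 lower. At least 4-fold differences numbered 51 higher and 241 lower, and at least 16-fold differences 1 higher and 47 lower. This scale understates the change of low genes, so ratios of mean TPM can pass these limits for genes not counted.

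Against white-light Col-0 the mutant under UV-B differed in far fewer genes. Of the genes tested, 4.17% (802) were higher and 1.34% (258) lower in uvr8 under UV-B. Genotype and UV-B differ together in that comparison and cannot be told apart. Its counts also lean on single libraries: 1060 genes were called in all, against 604 without uvr8 replicate 1, 581 without uvr8 replicate 2, 439 without white-light replicate 1, 637 without white-light replicate 2 and 670 without white-light replicate 3.

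Each library summed to between 998197.5 and 998581.1 TPM, so sequencing depth is unknown and no counting interval can be given. Spearman correlations over tested genes were 0.977 to 0.988 among the uvr8 libraries and 0.981 to 0.986 among the Col-0 UV-B libraries. Between uvr8 and Col-0 under UV-B they were 0.924 to 0.939, and between the mutant and the white-light baseline 0.969 to 0.981. Chloroplast-encoded transcripts took 0.535%, 0.331% and 0.15% of the TPM in the uvr8 libraries, against 0.849%, 0.558% and 0.252% in the Col-0 UV-B libraries. Rescaling without organelle genes changed the number of called genes to 8744. The leaf markers RBCS1A and CA1 were abundant in every library, whereas the root hair markers EXPA7 and COBL9 and the endodermis markers CASP1 and CASP2 were at or near 0, with a highest value of 0.81 TPM in any UV-B or white-light library. Markers of guard cells (3 tested), epidermis (2), xylem (2) and dividing cells (3) gave no call. Of 3 mesophyll markers, LHCB1.1 was lower in uvr8 than in Col-0 under UV-B (-1.12, adjusted p = 3.11e-05), RBCS1A was called lower only after scaling (adjusted p = 0.0331) and CA1 was not called. In bulk tissue, fewer cells of a type and less RNA per cell cannot be told apart.

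The UVR8 transcript itself was lower in the mutant. UVR8 (chromosome 5, 25554416 to 25559499, TAIR10.1) stood at 20.8, 23.6 and 21.1 TPM in uvr8 under UV-B, against 66.9, 73.8 and 71.1 TPM in Col-0 under UV-B and 106 to 107 TPM in Col-0 in white light. The groups did not overlap, and the log2 difference was -1.65 ± 0.07 (SE, adjusted p = 3.59e-09), a 3.23-fold lower level. Because the position of the lesion is not given, this value checks the label by transcript level only.

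Of the 23 genes of the UVR8 signalling list, 22 were tested. WRKY36, a repressor of HY5, lay below 1 TPM in most libraries. In uvr8, 15 were lower and 3 higher, beside 11.6% and 34.0% of all genes tested. The 15 include UVR8 itself, for which the mutant is named. The median log2 difference was -1.53 against 0.20 for all genes tested. The counts of the list were the same under both scalings. Both feedback genes were lower. RUP2 had 3.64, 1.97 and 2.96 TPM in uvr8, against 117, 129 and 115 TPM in Col-0 under UV-B. RUP1 had 1.76, 1.99 and 1.38 TPM in uvr8, against 63.0, 68.2 and 61.7 TPM in Col-0. These levels were 42.1-fold lower for RUP2 and 37.6-fold lower for RUP1 in the mutant (adjusted p = 2.25e-10 and 4.32e-11).

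The pair of bZIP genes differed in the TPM level that remained in the mutant. HY5 (chromosome 5, 3593335 to 3595073) was listed at 0, 0.64 and 4.08 TPM in uvr8, against 83.4, 101 and 92.6 TPM in Col-0 under UV-B. In white-light Col-0 it was listed at 0, 0.16 and 0 TPM. HYH, its close homologue, kept 47.3, 47.2 and 63.0 TPM in uvr8, against 325, 284 and 297 TPM in Col-0 under UV-B. White-light Col-0 had 17.3, 20.1 and 30.01 TPM of HYH. HYH was thus lower in uvr8 than in Col-0 under UV-B (log2 difference -2.51 ± 0.19, adjusted p = 8.84e-07), and higher in uvr8 under UV-B than in white-light Col-0 (1.21 ± 0.19, adjusted p = 0.00383). It was the only member of the list called higher than that baseline. HY5 was not called against white-light Col-0 (0.95 ± 0.42, adjusted p = 0.233), with uvr8 libraries spread over 0 to 4.08 TPM.

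Within the COP1 complex, COP1 stood at 15.4 to 16.0 TPM in uvr8, against 28.7 to 34.4 TPM in Col-0 under UV-B. SPA1, SPA3 and SPA4, partners of COP1, were lower by 1.52, 1.78 and 1.08 on the log2 scale. SPA2 was not called (0.20 ± 0.11, adjusted p = 0.178), and its sign turned under the other scaling (-0.01). Exons of SPA3 share 135 bases with a gene on the opposite strand, and the strand setting of the counting is not stated in the labels.

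B-box zinc finger proteins work with HY5, some for it and some against it. BBX31 had 0.30, 0.07 and 0.49 TPM in uvr8, against 33.6, 35.1 and 31.3 TPM in Col-0 under UV-B. BBX30 was listed at 0, 0.30 and 0 TPM in uvr8 and at 7.34, 7.72 and 7.37 TPM in Col-0. BBX22, BBX24 and BBX25 were lower by 1.53, 1.45 and 1.61 on the log2 scale. BBX21, an activator of HY5 transcription, went the other way: it had 42.5, 46.4 and 40.4 TPM in uvr8, against 18.7, 17.3 and 21.8 TPM in Col-0 under UV-B (log2 difference 1.12 ± 0.09, adjusted p = 1.19e-06). White-light Col-0 had 42.1 to 44.5 TPM of BBX21, and uvr8 was not called against it (adjusted p = 0.997). BBX20 was not called between the UV-B groups.

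Among factors known to bind UVR8, the brassinosteroid-signalling regulators BES1 and BIM1 were higher in the mutant than in Col-0 under UV-B, by 1.06 ± 0.07 and 0.71 ± 0.15 on the log2 scale (adjusted p = 1.65e-07 and 0.0019). Neither was called against white-light Col-0 in the deposited TPM (adjusted p = 0.0839 and 0.993). After scaling, BES1 was lower in uvr8 than in white-light Col-0 (adjusted p = 0.029). MYB13 was lower, with 19.7, 26.7 and 28.2 TPM in uvr8, against 125, 124 and 129 TPM in Col-0 under UV-B. MYB73 and MYB77 were not called, and for MYB77 the sign depended on scaling (0.05 as deposited, -0.16 scaled). BES1 shares 818 of its 2437 exon bases with RRA3 on the opposite strand, and RRA3 was also higher in uvr8 (0.71 ± 0.12, adjusted p = 0.000339).

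**Figure D1:**
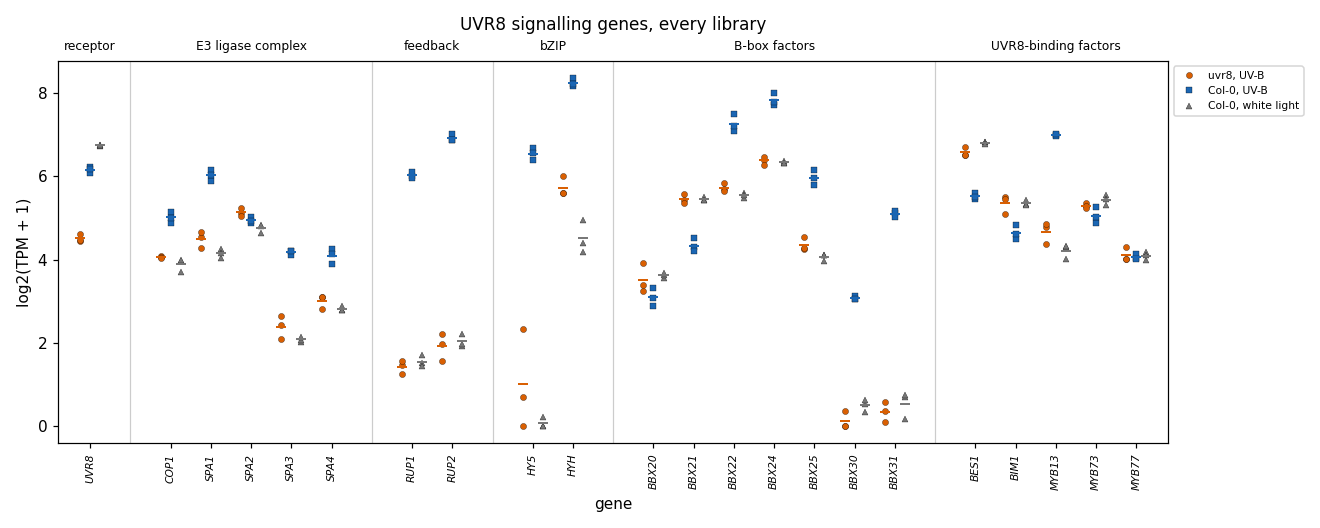
TPM of 22 UVR8 signalling genes on a log2(TPM + 1) axis, each point a library and each bar a group mean. For RUP1, RUP2, BBX30 and BBX31 the uvr8 points lie near those of white-light Col-0, far below Col-0 under UV-B, whereas HYH lies between the Col-0 groups and BBX21, BES1 and BIM1 lie above Col-0 under UV-B.

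Upstream sequence was examined because HY5 and HYH bind elements with an ACGT core, such as the G-box CACGTG. In the 250 bases before the annotated gene start (RefSeq, TAIR10.1), CACGTG occurred on either strand in 7.3% of 19133 tested genes with a window. It occurred in 12.6% of the 699 genes at least 2-fold lower in uvr8, and in 8.03% of 797 genes at least 2-fold higher. The shorter ACGTG, which every G-box also contains, occurred in 23.2% of all windows, 36.6% of the at least 2-fold lower set and 28.4% of the at least 2-fold higher set. It was present for 12 of 19 clock genes, 7 of 13 photoprotection and repair genes, 9 of 22 signalling genes and 6 of 16 flavonoid enzymes. In other lists it was present for 3 of 9 hydroxycinnamate genes, 5 of 18 salicylate and defence genes, 2 of 8 entry genes, 4 of 16 flavonoid regulators and 4 of 21 auxin-response genes, shares of 33.3%, 27.8%, 25.0%, 25.0% and 19.0%. ACCTAC, a MYB-type element, occurred in 4.6% of all windows, 7.3% of the at least 2-fold lower set, 4.02% of the at least 2-fold higher set and 10 of the 47 genes at least 16-fold lower. Of the same 47 genes, 7 (14.9%) had CACGTG and 20 (42.6%) had ACGTG, so most had no G-box in the window. These are counts of letters in a fixed window and not binding sites. Windows of strongly lower genes are shown 5′ to 3′ on the strand of the gene, with the match in capitals, from chr2:19476181-19476240 (MYB12, plus strand), chr5:1563192-1563251 (CHIL, plus), chr3:8085703-8085762 (ELIP1, minus), chr1:4209010-4209069 (PHR1, minus), chr3:19025007-19025066 (F3H, plus), chr4:8850594-8850653 (UGT84A1, minus) and chr3:6023762-6023820 (HYH, plus).
MYB12, G-box: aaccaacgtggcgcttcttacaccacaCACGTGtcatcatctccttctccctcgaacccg
CHIL, G-box: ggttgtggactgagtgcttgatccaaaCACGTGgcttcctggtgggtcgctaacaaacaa
ELIP1, G-box: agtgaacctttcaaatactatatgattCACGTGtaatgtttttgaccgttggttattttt
PHR1, G-box: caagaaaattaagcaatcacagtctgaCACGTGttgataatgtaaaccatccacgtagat
F3H, MYB-type: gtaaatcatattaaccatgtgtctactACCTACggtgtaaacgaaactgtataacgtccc
UGT84A1, MYB-type on the reverse strand: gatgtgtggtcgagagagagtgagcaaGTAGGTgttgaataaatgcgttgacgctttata
HYH, ACGTG: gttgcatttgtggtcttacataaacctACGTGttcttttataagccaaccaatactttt
F3H also holds a G-box at 249 bases and UGT84A1 a forward ACGTG at 154 bases before the start. The first base of the capitals lay 118 bases before the gene start for MYB12, 67 for CHIL, 66 for ELIP1, 43 for PHR1, 158 for F3H, 110 for UGT84A1 and 55 for HYH.

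Photoprotection and repair genes held the widest differences. Of 13 tested, 11 were lower in uvr8 and none was higher, with a median log2 difference of -2.14. The early light-induced proteins ELIP1 and ELIP2 bind free chlorophyll in the thylakoid. ELIP1 had 1.05, 2.14 and 1.53 TPM in uvr8, against 1723, 1771 and 1699.9 TPM in Col-0 under UV-B, a 1100-fold lower level. ELIP2 was listed at 1.35, 0 and 0 TPM in uvr8, against 2032, 2279 and 2128 TPM in Col-0 under UV-B. White-light Col-0 had 0.81 to 1.06 TPM of ELIP1 and was listed at 0.63, 0 and 0 TPM of ELIP2. MPC2, whose annotated start lies 244 bases past the end of ELIP2 on the same strand, had 0.35, 0.99 and 1.36 TPM in uvr8, against 351, 77.4 and 106 TPM in Col-0, and reads of the 2 neighbours may not be separable.

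Plastid genes of this list were lower too. SIG5, a sigma factor of the plastid RNA polymerase, had 2.87, 2.68 and 3.24 TPM in uvr8, against 199.9, 192 and 186 TPM in Col-0 under UV-B (log2 difference -5.63 ± 0.09, adjusted p = 3e-12). These uvr8 values were above the 1.75 to 1.96 TPM of white-light Col-0 (adjusted p = 0.0111). GPX7, a glutathione peroxidase-like protein of the plastid, had 0.22 to 0.49 TPM in uvr8 and 72.3 to 80.5 TPM in Col-0 under UV-B. NPQ4, the PsbS protein of non-photochemical quenching, had 381 to 405 TPM in uvr8, against 1461 to 1770.0 TPM in Col-0 under UV-B. All 3 photolyase-family genes were lower: CRY3 by 3.79, PHR1, which repairs pyrimidine dimers, by 3.12, and UVR3, the (6-4) photolyase, by 2.00 on the log2 scale. The excision repair genes UVH1 and ERCC1 were not called (adjusted p = 0.139 and 0.229). GPX7 shares 751 of its 1712 exon bases with a gene on the opposite strand that did not reach the filter of 1 TPM in 3 of the UV-B libraries.

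**Figure D2:**
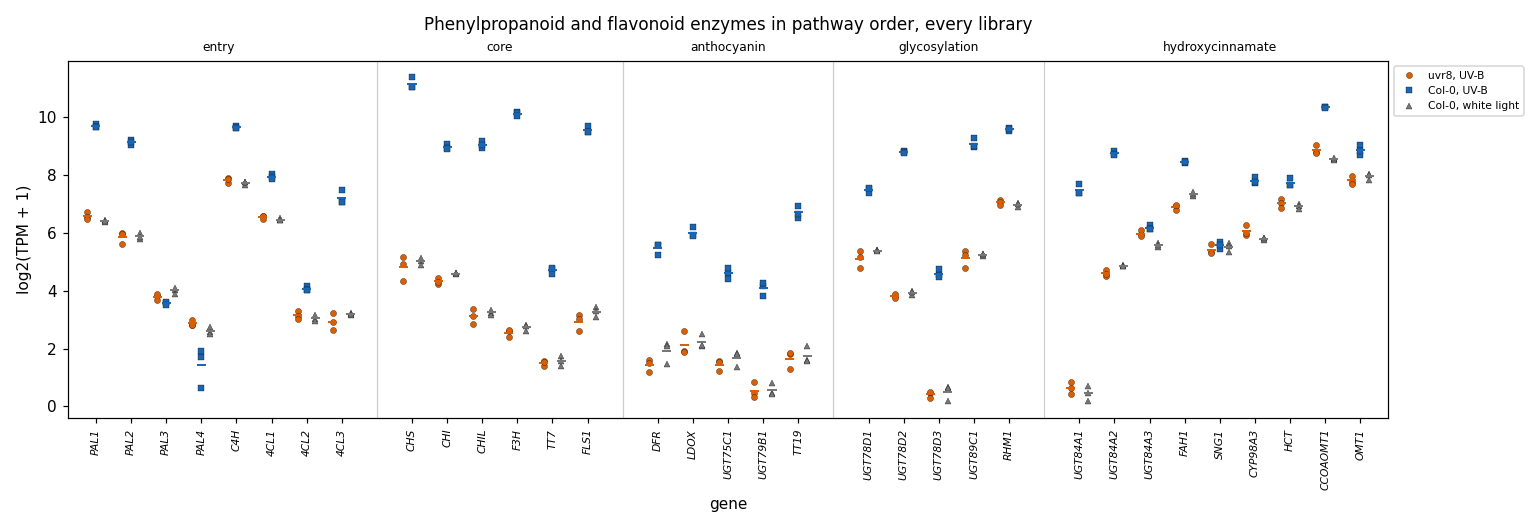
TPM of phenylpropanoid, flavonoid and hydroxycinnamate genes in pathway order on a log2(TPM + 1) axis, each point a library and each bar a group mean. In every flavonoid gene the 3 uvr8 points lie below the 3 points of Col-0 under UV-B and near white-light Col-0. PAL4 lies above Col-0 under UV-B.

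Flavonoids and sinapate esters are the UV-absorbing sunscreens of the leaf. All 16 flavonoid enzyme genes tested were lower in uvr8, under both scalings, with a median log2 difference of -4.10. Together they took 0.029 ± 0.0035% of the TPM in uvr8, 0.734 ± 0.043% in Col-0 under UV-B and 0.0307% in white-light Col-0 (SD, n = 3 each). None of the 16 was called between uvr8 under UV-B and white-light Col-0. In that comparison 4.17% of all genes were higher and 1.34% lower, so an absence of calls in a short list says little. CHS, chalcone synthase, the first committed step, had 34.5, 29.0 and 19.2 TPM in uvr8, against 2633, 2080.0 and 2077 TPM in Col-0 under UV-B. F3H, flavanone 3-hydroxylase, had 5.08, 5.22 and 4.25 TPM in uvr8, against 1145, 1113 and 1042 TPM in Col-0. FLS1, flavonol synthase, had 7.99, 5.06 and 7.17 TPM in uvr8, against 703, 813 and 710.2 TPM in Col-0. The mutant levels were 82.1-fold lower for CHS, 227-fold lower for F3H and 110-fold lower for FLS1.

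The size of the difference varied by branch. The median was -6.12 for the 6 core enzymes, -3.87 for the 5 anthocyanin genes and -3.94 for the 5 flavonol glycosylation genes. The smallest was that of UGT78D1, a flavonol rhamnosyltransferase, which kept 26.3 to 40.3 TPM in uvr8, against 164 to 186 TPM in Col-0 under UV-B. Nearly the whole of F3H (1415 of 1508 exon bases) is overlapped on the opposite strand by AT3G51238, which was listed at 0.08, 0 and 0.23 TPM in uvr8 and at 17.8, 15.4 and 14.9 TPM in Col-0 under UV-B, so the 2 loci cannot be told apart if reads were counted without strand.

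Genes at the entry to the pathway moved by isoform. Of 8 tested, 6 were lower, 1 was higher and 1 was not called. PAL1 and PAL2, phenylalanine ammonia-lyases, were lower by 3.1 and 3.26 on the log2 scale, C4H by 1.83 and 4CL3, the isoform tied to flavonoid synthesis, by 4.27. PAL4, singled out after its values were seen, was the one higher: 6.92, 6.10 and 6.03 TPM in uvr8, against 0.57, 2.29 and 2.78 TPM in Col-0 under UV-B (1.45 ± 0.25, adjusted p = 0.000585). PAL3 was not called (0.22 ± 0.11, adjusted p = 0.117). In the hydroxycinnamate list, 8 of 9 were lower. UGT84A1, a sinapate glucosyltransferase, had 0.36, 0.54 and 0.81 TPM in uvr8, against 201, 165 and 166 TPM in Col-0 under UV-B. Its relative UGT84A2 was lower by 4.14, whereas UGT84A3 was lower by only 0.20 (adjusted p = 0.0451) and stood above white-light Col-0 by 0.41 (adjusted p = 0.00861). FAH1, ferulate 5-hydroxylase, was lower than in Col-0 under UV-B by 1.54 and also lower than in white-light Col-0 by 0.45 on the log2 scale (adjusted p = 0.00247).

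Of 16 regulators of flavonoid genes, 12 were lower, among them 8 of 9 activators and 4 of 7 repressors. MYB12, which activates flavonol genes, was listed at 0.05, 0 and 0 TPM in uvr8, against 41.0, 37.3 and 34.4 TPM in Col-0 under UV-B. MYB111 and MYB11, which act with it, were lower by 4.29 and 3.39 on the log2 scale, and MYB75, an anthocyanin activator, by 3.17. The repressors MYB4, MYB7 and MYB32 were lower too, by 1.09, 1.52 and 1.19. LBD37, a repressor of anthocyanin synthesis, was higher by 0.76 ± 0.09 (adjusted p = 4.49e-05). TTG1 was called higher only in the TPM as deposited.

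Clock genes were lower as a group. Of 19 tested, 15 were lower and none was higher (17 lower after scaling), with a median of -0.77. PRR9, a morning repressor, had 1.87, 2.27 and 1.86 TPM in uvr8, against 15.0, 10.5 and 9.62 TPM in Col-0 under UV-B. ELF4, of the evening complex, had 132, 124 and 151 TPM in uvr8, against 445, 488 and 464 TPM in Col-0, and remained above the 90.6 to 103 TPM of white-light Col-0 (adjusted p = 0.0115, a call lost after scaling, at 0.086). RVE8 and LNK1, an activator and its co-activator, were lower by 1.92 and 1.5. LUX, LNK3, PRR7 and ELF3 were not called in the deposited TPM (adjusted p = 0.301, 0.784, 0.0957 and 0.269). PRR9 has a stretch of 440 bases that is 99.3% identical to another locus, so its level is uncertain.

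Other photoreceptors did not move together: of 9 tested, 5 were higher and 1 lower (3 and 2 after scaling). Among all genes, 34.0% were higher and 11.6% lower (19.5% and 19.6% after scaling). None of the 9 was called between uvr8 under UV-B and white-light Col-0, where 4.17% of all genes were higher and 1.34% lower. PHYA, the far-red phytochrome, had 59.1, 68.4 and 60.6 TPM in uvr8, against 17.41, 17.1 and 20.5 TPM in Col-0 under UV-B (1.72 ± 0.11, adjusted p = 1.79e-07). PHOT1 and CRY2, blue-light receptors, were higher by 1.44 and 1.11. PHOT2 was lower, with 25.5, 24.9 and 15.8 TPM in uvr8, against 65.0, 51.4 and 49.1 TPM in Col-0. PHOT2 overlaps AT5G58150 over 2760 of 7121 exon bases, and that gene was higher in uvr8 (0.69 ± 0.17).

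**Figure D3:**
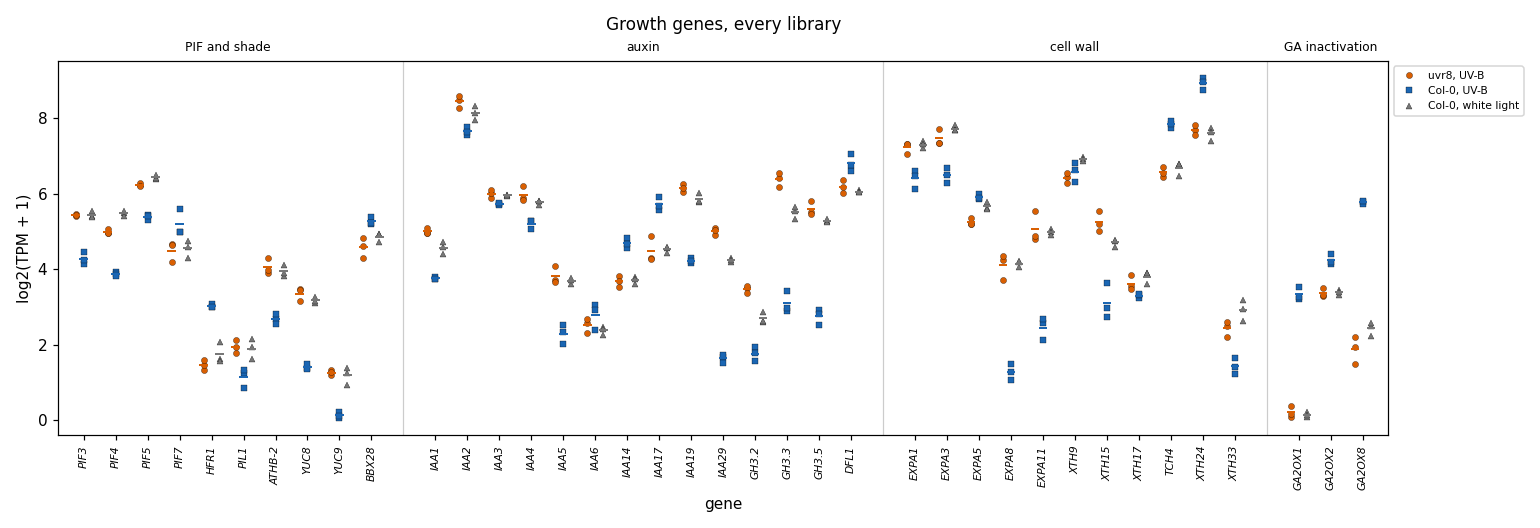
TPM of PIF and shade, auxin, cell wall and gibberellin-inactivation genes on a log2(TPM + 1) axis, each point a library and each bar a group mean. IAA29, GH3.3, YUC8 and EXPA8 lie higher in uvr8 than in Col-0 under UV-B, and GA2OX1, GA2OX8, TCH4 and HFR1 lie lower.

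Growth genes were higher in the mutant than in Col-0 under UV-B in most lists, with named exceptions. Against white-light Col-0, no PIF and shade or cell wall gene was called higher in uvr8 under UV-B, and 3 of 21 auxin-response genes were. Among all genes, 4.17% were higher and 1.34% lower in that comparison, so short lists would hold few calls at these shares. Under each scaling 1 PIF and shade gene was lower than in white-light Col-0, and 1 cell wall gene was lower only after scaling. PHYTOCHROME INTERACTING FACTORS promote elongation and induce auxin synthesis, and UV-B is known to restrain them. Of 10 PIF and shade genes, 7 were higher and 3 lower under both scalings, with a median of 0.99. PIF3, PIF4 and PIF5 were higher by 1.17, 1.12 and 0.85 on the log2 scale. YUC8, an auxin synthesis enzyme, had 7.86, 10.05 and 9.86 TPM in uvr8, against 1.58, 1.55 and 1.80 TPM in Col-0 under UV-B. White-light Col-0 had 7.54 to 8.53 TPM of YUC8, and uvr8 was not called against it (adjusted p = 0.601). HFR1, an inhibitor of PIFs, had 1.49 to 2.03 TPM in uvr8 and 6.98 to 7.43 TPM in Col-0 under UV-B. PIF7 and BBX28 were also lower, by 0.70 and 0.69. PIF4 was lower in uvr8 under UV-B than in white-light Col-0 (-0.49 ± 0.09, adjusted p = 0.00674).

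Of 21 auxin-response genes tested, 15 were higher and 3 lower (12 and 4 after scaling), with a median of 0.97. IAA29, an Aux/IAA repressor, had 28.9, 33.1 and 31.8 TPM in uvr8, against 2.17, 1.86 and 2.29 TPM in Col-0 under UV-B, a 14.8-fold higher level. GH3.3, an auxin-conjugating enzyme, had 83.6, 92.1 and 71.8 TPM in uvr8, against 6.41, 6.76 and 9.68 TPM in Col-0. Both were also above white-light Col-0, which had 17.2 to 18.5 TPM of IAA29 and 39.4 to 49.4 TPM of GH3.3 (adjusted p = 0.00323 and 0.0218). GH3.5 and IAA19 were higher than in Col-0 under UV-B by 2.84 and 1.93. The exceptions were IAA14, IAA17 and DFL1, lower by 1.00, 1.23 and 0.62. The 7 SAUR genes had differences of 0.42 to 1.41, and 5 were called higher, or 3 after scaling.

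Cell wall genes split. Of 11 tested, 6 were higher and 3 lower under both scalings. EXPA8, an expansin, had 12.2, 18.0 and 19.4 TPM in uvr8, against 1.09, 1.78 and 1.43 TPM in Col-0 under UV-B. EXPA11 and XTH15 were higher by 2.61 and 2.13. TCH4, a xyloglucan endotransglucosylase, had 85.1, 92.3 and 104 TPM in uvr8, against 215, 231 and 243 TPM in Col-0, and XTH24 and EXPA5 were lower as well, by 1.24 and 0.65. The summed TPM of the list was lower in uvr8, at 788.8 to 955.8 TPM, than in Col-0 under UV-B, at 1048.9 to 1103.7 TPM, although its median difference was positive (0.83). Gibberellin 2-oxidases, which inactivate the growth hormone gibberellin, were all 3 lower. GA2OX8 had 1.80, 3.56 and 2.81 TPM in uvr8, against 54.3, 51.6 and 54.5 TPM in Col-0, and GA2OX1 had 0.05 to 0.30 TPM in uvr8 and 8.31 to 10.6 TPM in Col-0. Of all 10 gibberellin and brassinosteroid genes tested, 6 were higher and 3 lower, or 4 and 3 after scaling. Over all genes, 34.0% were higher and 11.6% lower, or 19.5% and 19.6% after scaling. Among them, 2 of 3 gibberellin synthesis genes were higher (1 after scaling), as were all 4 brassinosteroid genes (3 after scaling). The synthesis gene GA20OX1 and the brassinosteroid-inactivating BAS1 were higher by 1.11 and 1.04.

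Salicylate and defence genes were mostly higher in uvr8. Of 18 tested, 15 were higher and 1 lower (13 and 2 after scaling), with a median of 0.84. PR1 had 45.8, 65.6 and 94.2 TPM in uvr8, against 3.79, 9.0 and 8.43 TPM in Col-0 under UV-B (3.12 ± 0.34, adjusted p = 1.43e-05). PR2, a glucanase, had 78.8, 70.9 and 61.5 TPM in uvr8, against 7.20, 13.96 and 15.1 TPM in Col-0 (2.50 ± 0.27, adjusted p = 1.32e-05). FMO1, of systemic resistance, and WRKY38 were higher by 1.85 and 1.81. PR5, a thaumatin-like protein, went against the rest, with 10.7, 11.02 and 11.3 TPM in uvr8, against 41.8, 38.3 and 33.0 TPM in Col-0 under UV-B (-1.68 ± 0.10, adjusted p = 1.21e-07).

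In the defence list 7 of 18 were higher in uvr8 under UV-B than in white-light Col-0, where 4.17% of all genes were. PR1 had 8.41, 15.7 and 17.9 TPM and PR2 had 19.8, 39.0 and 38.4 TPM in white-light Col-0, below uvr8 in every library (adjusted p = 0.00285 and 0.0267). PR5, at 6.45 to 7.30 TPM in white-light Col-0, was also higher in uvr8 under UV-B (adjusted p = 0.00537), so uvr8 stood between the Col-0 groups.

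**Figure D4:**
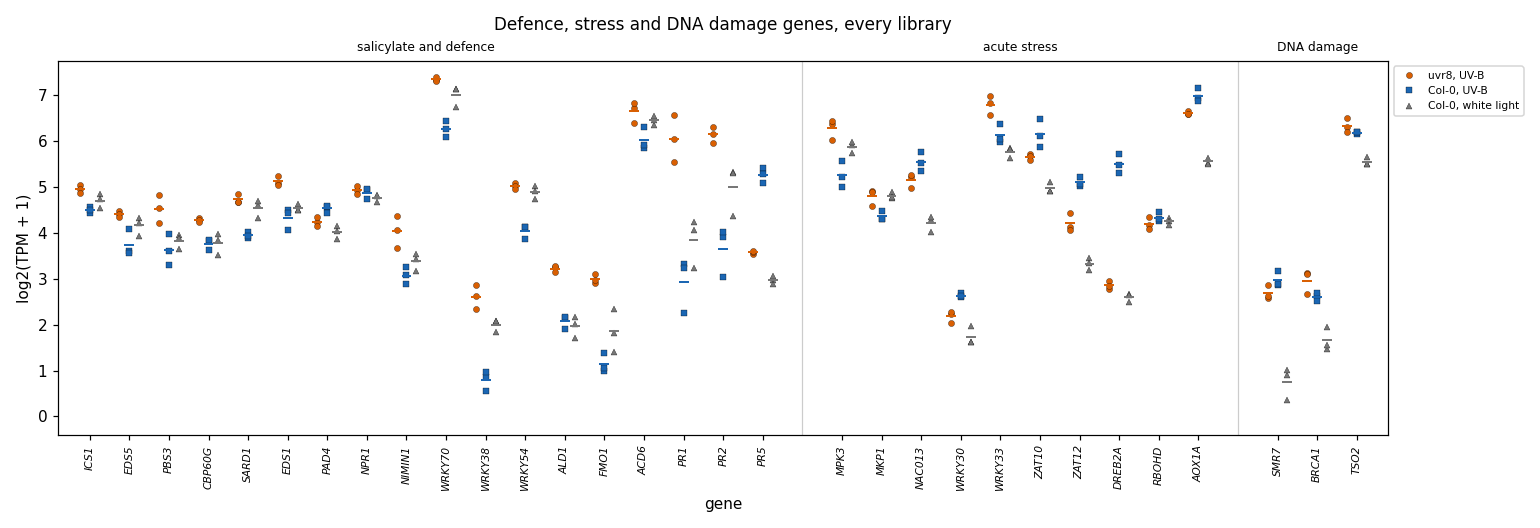
TPM of salicylate and defence genes, acute stress genes and the DNA damage genes SMR7, BRCA1 and TSO2 on a log2(TPM + 1) axis, each point a library and each bar a group mean. PR1, PR2 and FMO1 lie highest in uvr8, DREB2A lies nearer to white-light Col-0 in uvr8, and SMR7 and AOX1A lie above white light in both genotypes under UV-B.

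Acute stress and DNA damage genes held members that stood above the white-light baseline in the mutant. Of 10 acute stress genes, 5 were higher in uvr8 under UV-B than in white-light Col-0, where 4.17% of all genes were. Relative to Col-0 under UV-B, 6 were lower and 3 higher (7 and 3 after scaling). For all genes these shares were 11.6% lower and 34.0% higher (19.6% and 19.5% after scaling). AOX1A, the mitochondrial alternative oxidase, had 95.1, 99.5 and 95.2 TPM in uvr8, against 143, 121 and 117 TPM in Col-0 under UV-B. White-light Col-0 had 44.7 to 48.5 TPM, below uvr8 by 1.05 ± 0.08 on the log2 scale (adjusted p = 1.83e-05). ZAT12, a zinc finger factor, had 16.4, 20.5 and 15.8 TPM in uvr8, against 36.5, 31.5 and 32.5 TPM in Col-0 under UV-B and 8.11 to 9.93 TPM in white light. WRKY33, of pathogen and stress signalling, was highest in uvr8, at 94.4 to 126 TPM, against 61.8 to 82.0 TPM in Col-0 under UV-B and 48.7 to 56.6 TPM in white light. DREB2A, a drought and heat factor, had 5.85 to 6.74 TPM in uvr8, against 38.8 to 51.9 TPM in Col-0 under UV-B, while its difference from the 4.61 to 5.39 TPM of white-light Col-0 was not called (adjusted p = 0.417).

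Of 11 DNA damage genes tested, 4 were higher and none lower than in Col-0 under UV-B (2 and 1 after scaling), a share near the 34.0% of all genes called higher. Against white-light Col-0, 5 were higher, where 4.17% of all genes were. SMR7, a cell cycle inhibitor of the damage response, had 6.29, 4.94 and 5.16 TPM in uvr8, against 7.94, 6.33 and 6.37 TPM in Col-0 under UV-B. White-light Col-0 had 0.28, 0.87 and 1.01 TPM of SMR7, so both UV-B groups lay above it (uvr8, adjusted p = 8.08e-05). BRCA1, which acts in recombination, and TSO2, a ribonucleotide reductase subunit, were higher in uvr8 than in white-light Col-0 by 1.3 and 0.79. Neither was called between uvr8 and Col-0 under UV-B (adjusted p = 0.179 and 0.289).

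Enzymes of oxidative defence differed by isoform. Of 11 tested, 3 were higher and 5 lower, or 2 and 6 after scaling. Over all genes, 34.0% were higher and 11.6% lower, or 19.5% and 19.6% after scaling. CAT2, the leaf catalase of peroxisomes, had 61.1, 63.0 and 60.6 TPM in uvr8, against 621, 496 and 473 TPM in Col-0 under UV-B (-3.07 ± 0.11, adjusted p = 5.25e-10). CAT3 had 791, 740.4 and 611 TPM in uvr8, against 320.3, 319 and 305 TPM in Col-0 (1.17 ± 0.16, adjusted p = 7.59e-05). VTC2, the controlling enzyme of ascorbate synthesis, was lower by 2.57 ± 0.12. FSD1, an iron superoxide dismutase of the plastid, had 13.9, 12.8 and 12.3 TPM in uvr8, against 34.6, 35.7 and 46.2 TPM in Col-0 under UV-B and 81.9, 59.9 and 76.8 TPM in white-light Col-0. It was thus below both Col-0 groups (adjusted p = 4.6e-06 and 1.72e-06).

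All 6 carotenoid genes were lower, BETA-OHASE1, a carotene hydroxylase, by 2.79 ± 0.09. Of 7 chlorophyll genes, 2 were higher and 3 lower, or 2 and 5 after scaling. CHLH, a magnesium chelatase subunit, was lower by 1.83. PORA, a protochlorophyllide reductase, was higher by 1.81, with only 0.38 to 0.77 TPM in Col-0 under UV-B and 3.69 to 5.56 TPM in uvr8. Of 15 nuclear photosynthesis genes, 1 was higher and 3 were lower, or none and 7 after scaling. LHCB1.1, LHCB2.1 and LHCB3, light-harvesting proteins, were lower by 1.12, 1.00 and 0.48, and the call for LHCB3 was lost without Col-0 UV-B replicate 2 (-0.36) or uvr8 replicate 2 (-0.42). LHCB4.2 was the one higher, by 0.54, a call lost after scaling. LHCB1.1 is 96.1% identical to LHCB1.3 over 823 bases, and reads may be split between them. Of 8 genes of ABA synthesis and breakdown, 4 were higher and 3 lower, or 3 and 3 after scaling. ABA1, zeaxanthin epoxidase, was lower by 1.85, the ABA 8'-hydroxylases CYP707A2 and CYP707A4 were lower by 2.35 and 0.88, and ABA2 was higher by 0.75. Of 12 ABA and cold markers, 3 were higher and 4 lower, or 1 and 4 after scaling. The shares to set beside the counts of this paragraph are 34.0% higher and 11.6% lower over all genes, or 19.5% and 19.6% after scaling. The cold-regulated genes COR15A, COR15B, KIN1 and KIN2 were lower by 1.37, 1.34, 0.89 and 0.81, and ABI2, a phosphatase of ABA signalling, was higher by 0.73. COR47 and ABI1 were higher by 0.37 and 0.28, calls lost after scaling, and RD29A and RAB18, ABA markers, were not called.

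Indole and aliphatic glucosinolate genes were read apart. Of 5 indole genes 4 were higher: MYB51, their activator, had 82.8, 83.5 and 70.9 TPM in uvr8, against 29.4, 22.0 and 32.0 TPM in Col-0 under UV-B, and CYP83B1, CYP79B2 and CYP79B3 were higher by 1.1, 0.90 and 0.61. Of 5 aliphatic genes, 4 were not called and MYB29 was lower by 0.55 (adjusted p = 0.0324), or 2 were lower after scaling. Against white-light Col-0, 3 of the 5 were lower in uvr8 under UV-B, where 1.34% of all genes were, and 5 after scaling. As deposited these were MAM1, CYP79F1 and CYP83A1, enzymes of aliphatic glucosinolate synthesis, lower by 0.88, 0.86 and 0.82. Of 13 jasmonate genes, 5 were higher and 4 lower, or 2 and 5 after scaling. The higher calls are near the share over all genes, 34.0% as deposited and 19.5% after scaling. The lower calls are above it, at 11.6% as deposited and 19.6% after scaling over all genes. JAZ9, a repressor, was lower by 1.90 ± 0.09. PDF1.2, a defensin, was higher by 1.61 ± 0.44 (adjusted p = 0.0101), and the call for VSP2 (-0.91) was lost without Col-0 UV-B replicate 2 (-0.70) or uvr8 replicate 3 (-0.69). Of 8 heat shock genes, 2 were higher and 1 was lower, or 1 and 4 after scaling. Beside them stand 34.0% higher and 11.6% lower over all genes, or 19.5% and 19.6% after scaling. HSP17.4, a small heat shock protein, was higher by 0.90, BIP3, a chaperone of the endoplasmic reticulum, by 0.72, a call lost after scaling, and HSP70 was lower by 0.56. Most of HSP17.4 (453 of 724 exon bases) is overlapped on the opposite strand.

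**Figure D5:**
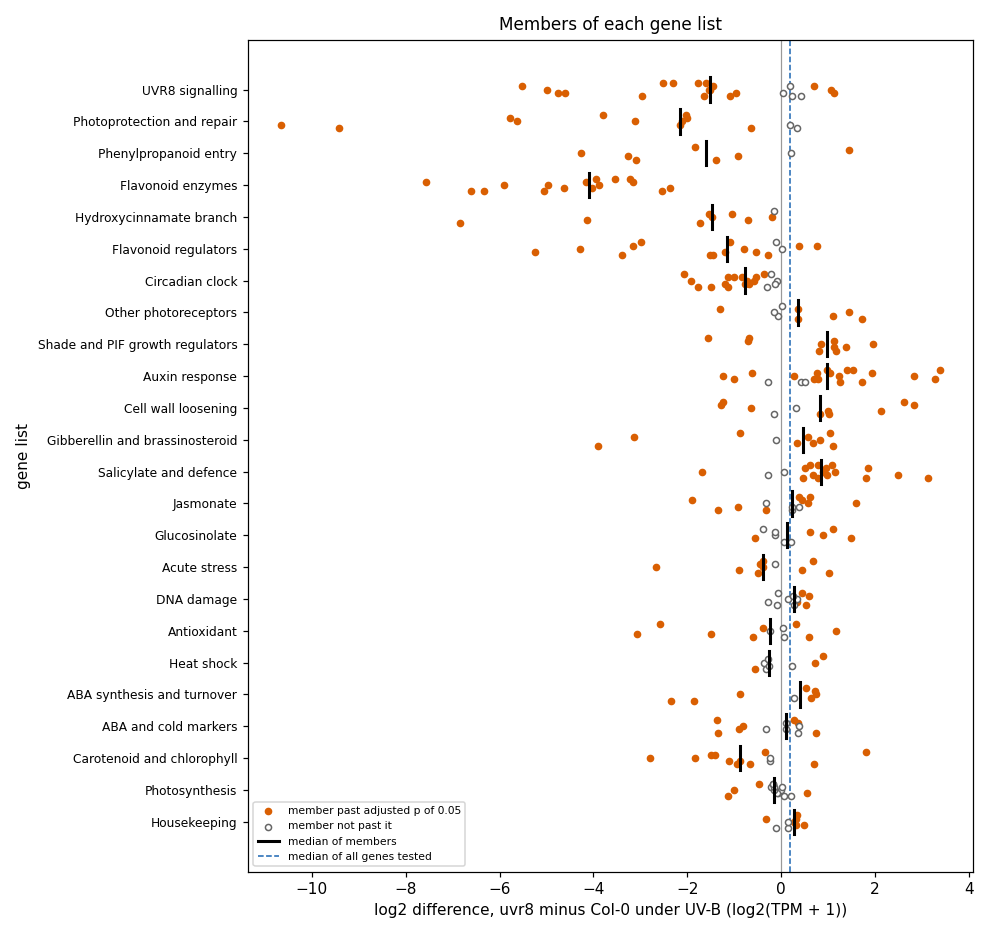
Log2 difference of each member of 24 gene lists, uvr8 minus Col-0 under UV-B. Filled points passed the adjusted p of 0.05, black bars are medians over members, and the dashed line is the median of all genes (0.20). Flavonoid enzymes have the lowest median (-4.10), the lowest single members are ELIP2 and ELIP1 of the photoprotection list, and the PIF, auxin and salicylate lists have medians of 0.99, 0.97 and 0.84.

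Over all genes tested, the largest differences among genes of at least 5 TPM in the higher group brought in several outside these lists. Lowest after ELIP2, ELIP1 and F3H came AT5G62210, which has no symbol in the annotation used, with 1.74, 1.76 and 0.97 TPM in uvr8, against 319, 309 and 301 TPM in Col-0 under UV-B. Highest was AT1G75945 (chromosome 1, 28515245 to 28515916), with 60.9, 63.1 and 65.0 TPM in uvr8, against 1.61, 2.62 and 2.22 TPM in Col-0 under UV-B. White-light Col-0 had 0.77 to 1.52 TPM of it, so this gene stood above both Col-0 groups (adjusted p = 1.89e-09 and 1.42e-08). WRKY75 had 13.5, 17.5 and 19.0 TPM in uvr8, against 1.51, 0.98 and 1.64 TPM in Col-0 under UV-B and 1.49 to 4.36 TPM in white light. DRMH1, a dormancy-associated gene family member, had 115, 157 and 140.2 TPM in uvr8, against 11.3, 24.0 and 19.0 TPM in Col-0 under UV-B and 104 to 149 TPM in white light. AT5G62280, without a symbol, had 51.7, 74.7 and 81.7 TPM in uvr8, against 4.61, 7.22 and 8.82 TPM in Col-0 under UV-B. The short non-coding AT3G02275 lies wholly within exons of RECA3 on the opposite strand, and its level is uncertain. SUC2, the sucrose transporter of phloem companion cells, was higher by 1.62 ± 0.14 (adjusted p = 3.06e-06), whereas APL, the other phloem marker, was not called, and its sign depended on scaling.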

How the data were processed

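Total RNA of seedlings was sequenced as paired-end Illumina TruSeq libraries, per the labels' protocols. The authors deposited a table of TPM values for each library, with TAIR10 named as the genome build in the submitters' processing notes. No source used here names the aligner, the counting tool or its strand setting. TPM are shares of a library, so a large rise of some genes lowers all others, and they hold no read depth.

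Groups came from the labels. Loci with at least 1 TPM in 3 or more of the 6 UV-B libraries were tested on log2(TPM + 1), which understates the change of low genes, with limma 3.58.1 in R 4.3.3 (4 group means, all 12 libraries, mean-variance trend, Benjamini-Hochberg adjustment, threshold 0.05). The procedure was also run on simulated data with 200 genes changed and no common shift, so that run does not bear on the choice of scaling. An exact 0 may be a failed estimate and is given as listed. No 2 libraries were identical. Fold levels of single genes are ratios of group mean TPM, whereas counts of genes past a fold limit use the log2(TPM + 1) difference.

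Symbols and windows came from RefSeq TAIR10.1, which matched 32548 of 32833 loci. Copies were sought with BLAST 2.17.0 (95% identity, 150 bases). Of 135 genes named by rule, 31 overlap another gene's exons. The rule took every UVR8 signalling gene, the 4 members with the largest difference in each other list, and the 10 highest and 10 lowest genes with separate groups and at least 5 TPM. Other members given with values were chosen after their values were seen. The members and the 32 lists were chosen with earlier results of these data known. Alternatives were a trimmed-mean (TMM-style) scaling, no filter, no trend, another pseudocount, fewer libraries, a replicate block and each library left out. Values of 2 list members are not reported here.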

Additional observations from a re-analysis of the deposited data

How the results depend on the processing

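The common shift depended on scaling: the median log2 difference was 0.197 as deposited and 0.005 after TMM-style scaling. After TMM-style scaling 3747 genes were higher and 3772 lower in uvr8 than in Col-0 under UV-B, and 437 were lower than in white-light Col-0. The total of 8769 calls under UV-B stayed within 1.5 times under every alternative run, and ranged over 7192 to 8851 with single libraries left out. Against white light the total ranged over 439 to 812 with a library left out, the higher calls over 344 to 606 and the lower calls over 95 to 206. Same-numbered libraries deviated together with r of 0.321, -0.0743 and 0.206, so the numbers were not taken to pair samples. With the replicate block 8523 genes were called (6345 higher, 2178 lower) under UV-B and 911 (677 higher, 234 lower) against white light, and each uvr8 library correlated best with the Col-0 library of its own number except replicate 2. Signs of small, uncalled differences turned. Under TMM-style scaling these were SPA2 (-0.01), MYB77 (-0.16), KAT1 (-0.06), APL (-0.10), IRX3 (-0.01), CA1 (-0.22) and CYCA1;1 (-0.11). With single libraries left out the values ran from -0.05 to 0.10 for MYB77, from -0.05 to 0.38 for KAT1, from -0.10 to 0.09 for MYB60, from -0.37 to 0.11 for PDF1, from -0.06 to 0.07 for XCP1, from -0.06 to 0.08 for CA1 and from -0.04 to 0.13 for CYCA1;1. CA1 was -0.00 without organelle-encoded genes, an alternative added after seeing the data. The cause was not tested. Depth is unknown and limits how low values can be read.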
